A study of Mus musculus with 40 samples.

Results

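Brown adipose tissue (BAT) of 10 mice on high-fat diet (HFD) was compared by RNA sequencing, 5 mice injected with CL-316,243 (CL), an agonist of the β3-adrenergic receptor, and 5 injected with saline. They were chosen by their sample labels alone and are 10 of the 40 mice sequenced. All were labelled Wildtype, and the study's methods describe them as male littermates of mice with an inducible *Gpr3* transgene, carrying either the transgene without Cre or Cre without the transgene, so that some had an unused allele. They were 15 weeks old and were kept at 29 °C, near thermoneutrality for mice. CL (1 mg/kg) or saline (10 µL/g) was injected into the peritoneum daily for 9 days, the diet with 60 kcal% fat replaced chow after 2 days of injections and was fed for 7 days, and tissue was taken the day after the last injection. The measurements therefore follow repeated dosing and not the hours after a single dose. The same injections were given to 5 and 5 mice on chow, and a separate cohort held C-3BO mice, in which a *Ucp1*-Cre transgene switches on *Gpr3* in brown and beige adipocytes, and their control littermates. For the HFD mice of that cohort the labels give 7 days of the diet and no injections, and the methods a wider range of ages. The methods give 6 mice a group, of which 5 have sequencing data here.

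BAT burns fatty acids and glucose to make heat. Noradrenaline from sympathetic nerves acts on β-adrenergic receptors, cAMP rises in the adipocyte, lipid droplets are broken down, and the fatty acids both fuel the mitochondria and activate uncoupling protein 1 (UCP1). Prolonged stimulation also changes which genes the tissue transcribes, which is what the comparison of CL with saline on HFD asks about, for genes that went down as well as up.

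Between 3391730 and 6028764 counts per CL mouse and between 849126 and 7284129 per saline mouse fell on listed genes. Saline replicate 4, at 849126, stood apart from the other 9 libraries on the first principal component, and 3 counts in it correspond to 3.01 CPM against 0.364 to 0.872 CPM in the others. CPM are counts per 1000000 of the library total after its adjustment by the TMM factor of edgeR, and 3 counts are taken as the detection floor, which covers counting error only. Genes were tested with edgeR's quasi-likelihood test over 13277 genes with Benjamini-Hochberg adjustment. "Induced" means a log2 fold change above 1 and "reduced" one below -1, each with an adjusted p under 0.05, while "higher" and "lower" genes passed the p alone.

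The libraries carried the markers of brown adipocytes. Per length of exon, *Ucp1* reached 1770.0 RPKM with saline and 5903 with CL, where it ranked 11 and 2 among all genes tested, and *Cidea*, a lipid droplet protein of brown fat, had 1397 and 2010.0 RPKM. They also carried transcripts of neighbouring or other tissues. Summed over 32 skeletal muscle genes, the level was 175, 492, 3711, 160 and 218 CPM in saline mice and 1383, 382, 245, 551 and 555 CPM in CL mice, so that saline replicate 3 and CL replicate 1 were richest in muscle transcripts. None of these 32 genes was at 0 in all 10 mice. Liver genes without *Hp*, which adipocytes also express, summed to 145 to 409.5 CPM with saline and 340 to 643 CPM with CL, and 26 epididymis genes, 4 of them at 0 in every mouse, to 12.0 to 38.9 and 24.0 to 58.4 CPM. *Alb*, albumin of the liver, had 62.2 to 170.4 CPM with saline and 97.2 to 191 CPM with CL. Some of the counts and calls that rest on the muscle-rich libraries are given below also without them.

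CL induced 273 genes (2.06% of those tested) and reduced 273 (2.06%). By the p alone 1686 genes (12.7%) were higher and 1436 (10.8%) lower, and the median log2 fold change over all genes tested was -0.01. These shares of all genes tested are the background for the counts of list members given below. All 5 CL mice lay above all 5 saline mice for 214 of the 273 induced genes (78.4%), against 1284 (9.67%) of all genes tested, and all 5 lay below for 160 of the 273 reduced genes (58.6%), against 891 (6.71%) of all. The balance between the directions moved with scaling and with the mice included. With scaling by library totals and no TMM factors, which shifted the median of all genes from -0.01 to -0.15, 197 genes were induced and 434 reduced, so that 31.2% of the calls were inductions. Without saline replicate 3 and CL replicate 1, 235 genes were induced and 155 reduced, and of the 273 reduced genes 140 (51.3%) were still called, against 207 (75.8%) of the induced ones. No other pair of mice was left out for comparison. Without saline replicate 4 alone, 276 were induced and 222 reduced.

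**Figure D1:**
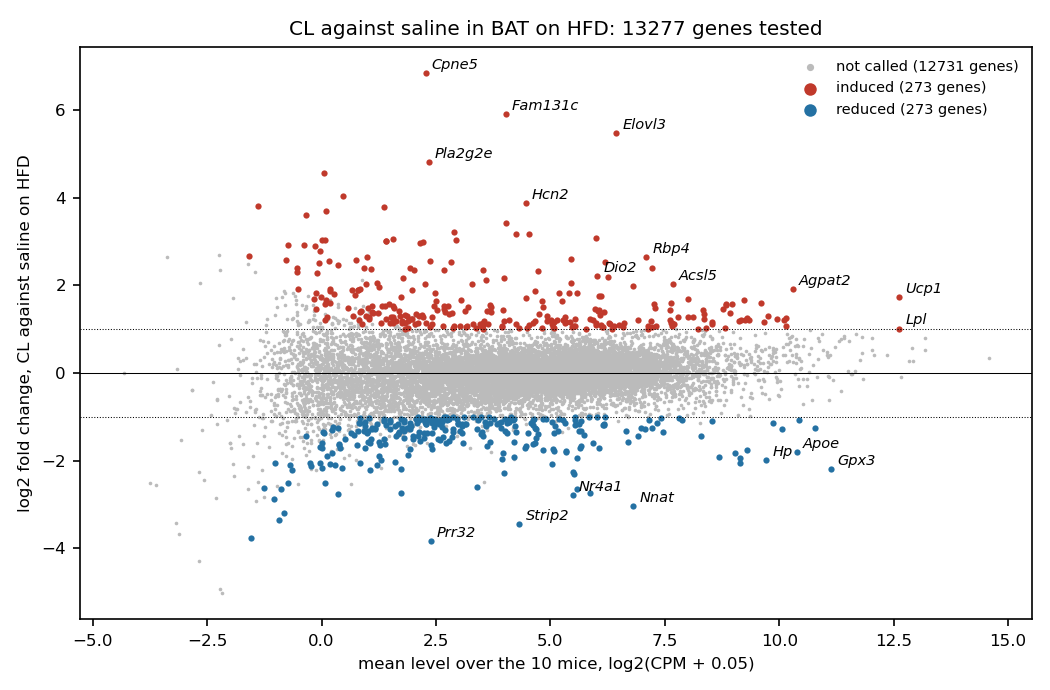
Log2 fold change of CL against saline on HFD (y axis) by mean level over the 10 mice in log2(CPM + 0.05) (x axis) for the 13277 genes tested, with induced genes in red, reduced genes in blue and dotted lines at a change of 1 and -1. Calls in both directions run from genes near 1 CPM to the most abundant ones, and the largest changes upward are those of *Cpne5*, *Fam131c* and *Elovl3*.

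Genes of heat production rose in part. *Ucp1*, whose product carries protons back into the mitochondrial matrix and so releases heat (chr8:85814247-85822355 in mm9), had 2834, 3040.0, 2310.0, 2519 and 3845 CPM in saline mice 1 to 5 and 11260.0, 9953, 9791, 8324 and 9191 CPM in CL mice 1 to 5. The groups did not overlap, and the mean was 3.33-fold higher with CL (log2 fold change 1.74, standard error 0.27, edgeR adjusted p = 8.25e-06). *Dio2* encodes the deiodinase that makes active thyroid hormone within the tissue. It had 26.4, 39.98, 13.7, 10.0 and 19.2 CPM with saline and 126, 143, 100.3, 87.1 and 84.1 CPM with CL, again with every CL mouse above every saline mouse (log2 fold change 2.22, standard error 0.47, edgeR adjusted p = 5.65e-04). *Cidea* was higher by a smaller amount, 1626 ± 50.5 against 2340.0 ± 285 CPM (SD, n = 5 each), a log2 fold change of 0.53 (edgeR adjusted p = 0.00359). *Ppargc1a*, the coactivator of mitochondrial biogenesis, had 71.3, 79.5, 56.9, 70.2 and 103 CPM with saline and 77.7, 85.4, 64.3, 74.3 and 75.8 CPM with CL, a difference of -0.02 ± 0.18 (log2, standard error) with an edgeR adjusted p of 0.963. *Prdm16*, a transcription factor of brown fat identity, differed by 0.27 (edgeR adjusted p = 0.286), or by 0.26 with adjusted p = 0.0292 when the 10 libraries were fitted alone. Of 32 tested genes on a list of thermogenic genes, 6 were induced, 1 was reduced, 11 were higher and 3 lower by the p alone, and the median log2 fold change was 0.25. The reduced member was *Ntrk3*, a neurotrophin receptor, at 143 ± 17.9 CPM with saline and 57.8 ± 12.7 with CL (log2 fold change -1.31, standard error 0.14, edgeR adjusted p = 8.59e-09). The other induced members were *Elovl3*, *Bmp8b*, *Gyk* and *Letmd1*.

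*Dio2* is known as a gene of the cAMP response, so promoters were searched for the full cAMP response element TGACGTCA, which reads the same on both strands. The windows ran from 250 bases before to 50 bases after each RefSeq gene start in GRCm38.p6, a later build than that of the counts. Among induced genes, *Dio2* and *Cenpe*, a motor protein of the mitotic spindle, were the 2 with the element. Both are shown with the element in capitals, 5′ to 3′ along the gene, since they are all the matches on that side. The *Dio2* stretch lies at chr12:90739115-90739144 on the minus strand, with the element starting at -95 from the gene start, and the *Cenpe* stretch at chr3:135212518-135212547 on the plus strand, with it at -34.
Dio2: ctctttctcaaTGACGTCAagatctttagc
Cenpe: ggactgtcccgTGACGTCAtgacgctgcgc
The element stood in 2 of 252 promoters of induced genes (0.794%, with 201 of the 273 genes matched by symbol), in 4 of 234 promoters of reduced genes (1.71%, 191 of 273 matched), in 2.97% of 12370 promoters of genes in neither set and in 1.79% of all 32851 promoters. The count for induced genes was thus not above that for all promoters. A match describes letters in a window and is no evidence of binding, and forms of the element that differ by a base were not searched.

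Enzymes that elongate fatty acids were among the most raised genes. *Elovl3* makes very long saturated fatty acids and is a classical marker of stimulated BAT. It had 2.62, 4.41, 2.79, 2.00 and 6.03 CPM with saline and 309, 182, 109.6, 149.8 and 95.6 CPM with CL (log2 fold change 5.48, standard error 0.51, edgeR adjusted p = 6.58e-10). The lowest CL mouse was far above the highest saline mouse, and CL replicate 1 was the highest of its group. *Elovl4*, another elongase, was at or under 3 counts in 3 of the saline libraries and rose to 5.26 ± 1.07 CPM (log2 fold change 3.06), *Elovl6*, which elongates palmitate, rose by 1.66 and *Hsd17b12*, which carries out the reduction step of elongation, by 1.36. *Fads3*, a member of the desaturase family, fell from 91.5 ± 48.0 to 30.9 ± 6.83 CPM (log2 fold change -1.60, standard error 0.39, edgeR adjusted p = 0.00282), a call that rested in part on saline replicate 3 and CL replicate 1 (adjusted p = 0.0555 without them). Of 30 tested members of the list for fatty acid synthesis and elongation 4 were induced and 1 was reduced. The induced members were the 4 elongation genes named above. By the p alone 8 were higher and 2 lower, and 20 did not pass. The median was 0.58 against -0.01 over all genes.

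Many genes of triglyceride synthesis rose. *Agpat2*, the acyltransferase whose loss causes lipodystrophy (chr2:26448577-26459937), had 469.9, 559.8, 444, 429 and 727 CPM with saline and 2676, 1825, 1888, 1990.0 and 1557 CPM with CL (log2 fold change 1.91, standard error 0.25, edgeR adjusted p = 5.97e-07). *Acsl5*, which activates fatty acids with coenzyme A, rose from 79.0 ± 24.3 to 330.1 ± 40.9 CPM and *Mogat1*, a monoacylglycerol acyltransferase, from 3.38 ± 1.77 to 19.5 ± 2.83 CPM, by 2.03 and 2.36 on the log2 scale. *Gyk*, glycerol kinase, which lets brown adipocytes reuse the glycerol of lipolysis, rose by 1.70. In each of these genes the groups did not overlap. Of 27 tested members 5 were induced and 13 higher by the p, 1 was lower and none reduced, with a median of 0.41. The member that was lower was *Aqp7*, the channel through which glycerol leaves the adipocyte (log2 fold change -0.89). Of 23 tested genes of lipolysis and lipid droplets 10 were higher and 1 lower, with 1 induced and 1 reduced (5 induced without saline replicate 5, 3 without CL replicate 5 and 2 without CL replicate 3). *Pnpla2* and *Lipe*, the lipases of the first steps, differed by -0.15 and -0.09 (edgeR adjusted p = 0.282 and 0.54), while *Acot11*, a thioesterase, rose by 1.23 and *Plin4*, a coat protein of lipid droplets, fell from 1277 ± 224 to 582 ± 111 CPM (log2 fold change -1.14, standard error 0.14, edgeR adjusted p = 1.61e-07). When only library totals were used for scaling, the differences of *Pnpla2* and *Lipe* were -0.30 and -0.23 and passed the p (0.0175 and 0.0416), beside a shift of all genes to -0.15.

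Genes of fat oxidation rose widely by moderate amounts. *Cpt2*, which hands fatty acids over to the mitochondrial matrix, had 479, 503, 454, 412 and 647 CPM with saline and 1311, 1236, 1225, 1203 and 1175 CPM with CL (log2 fold change 1.30, standard error 0.15, edgeR adjusted p = 4.37e-08). Its partner *Slc25a20*, the carnitine-acylcarnitine carrier, rose by 1.18, *Decr1*, needed for unsaturated fatty acids, by 1.22 and *Acad11*, an acyl-CoA dehydrogenase, by 1.02, although the span of *Acad11* overlaps that of *Ackr4* on the other strand. Of 25 tested genes of mitochondrial fatty acid oxidation 18 were higher and none lower, 5 of them induced. The number induced was 3 without CL replicate 1, CL replicate 2, saline replicate 3 or saline replicate 4, and without both muscle-rich libraries 13 were higher. In peroxisomes, *Abcd3*, a transporter of the peroxisomal membrane, rose by 1.36 and *Hacl1*, which acts on branched and hydroxylated fatty acids, by 1.40 on the log2 scale. *Acaa1b*, a peroxisomal thiolase, rose most (log2 fold change 2.54, standard error 0.25, edgeR adjusted p = 3.33e-09), but reads may be split with its near-identical copy *Acaa1a*, which did not pass the p. Of 44 tested peroxisomal genes 24 were higher and 1 lower, 6 of them induced (10 without saline replicate 5), and the median was 0.54.

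Downstream of fatty acid oxidation no tested gene of the tricarboxylic acid cycle or respiratory chain lists was induced or reduced. Of 34 tested genes of pyruvate oxidation and the tricarboxylic acid cycle 27 were higher and 2 lower (*Pdp1* and *Idh2*). The lowest p belonged to *Sucla2*, a subunit of succinyl-CoA ligase, which had 1779, 1868, 1753, 1829 and 2203 CPM with saline and 3403, 3301, 3081, 2967 and 2925 CPM with CL (log2 fold change 0.73, standard error 0.10, edgeR adjusted p = 5.52e-07). *Dlst*, of the 2-oxoglutarate dehydrogenase complex, rose by the same 0.73. Of 77 tested subunits of the respiratory chain and ATP synthase 26 were higher and none lower, with *Uqcrfs1* and *Uqcrc2* of complex III at 0.85 and 0.81, and the median was 0.27. In both lists saline replicate 5 was the highest of its group for the members named, *Sucla2*, *Dlst*, *Uqcrc2* and *Uqcrfs1*, and still lay below every CL mouse. In the breakdown of branched-chain amino acids 13 of 22 members were higher and 3 lower, among the latter *Bcat1*, the cytosolic aminotransferase, at 3.81 ± 1.18 and 1.73 ± 1.40 CPM (log2 fold change -1.27, edgeR adjusted p = 0.0198). That call was lost without CL replicate 4 (adjusted p = 0.0696), CL replicate 5 (0.0611) or saline replicate 3 (0.0851).

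In sugar metabolism the largest increases were those of fructose bisphosphatase and glycogen synthase. *Fbp2*, the muscle form of this enzyme of gluconeogenesis, had 10.1, 11.7, 11.3, 14.0 and 15.7 CPM with saline and 86.6, 87.1, 74.2, 72.6 and 51.2 CPM with CL (log2 fold change 2.60, standard error 0.29, edgeR adjusted p = 3.15e-08), and *Fbp1*, the liver form, rose by 2.35. The genes lie beside each other on chromosome 13 with 6382 bases between them. *Gys2*, glycogen synthase of the liver type, rose from 30.3 ± 10.7 to 108 ± 20.8 CPM and *Pgam1*, a glycolytic mutase, from 19.1 ± 2.33 to 45.3 ± 5.36. Of 52 tested members 8 were induced, 1 was reduced and 19 were higher by the p. The reduced member *Hk3*, a hexokinase abundant in myeloid cells, differed by -1.49 (edgeR adjusted p = 0.0403) and overlapped between the groups. It lost the call without any of CL replicates 1 to 4 or saline replicates 1, 2 and 4 (adjusted p = 0.0538 to 0.115). *Aacs*, which makes acetoacetyl-CoA for lipid synthesis, rose by 1.14 and was the 1 induced of 9 genes of ketone metabolism, and of 21 tested genes of cholesterol synthesis 3 were induced, among them *Nsdhl* and *Fdps* at 1.17 and 1.11. Under scaling by library totals 1 of the 21 was induced.

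Several of the largest increases were in genes with no settled role in BAT. *Cpne5*, a calcium-dependent phospholipid-binding protein (chr17:29293466-29374735), had 2 counts in all 5 saline mice together, both in replicate 2, and 6.73, 13.8, 7.85, 11.2 and 7.99 CPM with CL. Its mean was at least 10.0-fold higher than a floor of 3 counts per library (edgeR adjusted p = 2.42e-08), and the fitted log2 fold change of 6.85 is no bound. *Fam131c* (chr4:140924107-140940089) had 0.827, 0.787, 0, 0 and 0.635 CPM with saline and 31.6, 30.9, 27.9, 30.4 and 39.4 CPM with CL (log2 fold change 5.92, standard error 0.49, edgeR adjusted p = 5.44e-11). The 5 CL mice lay within a narrow range and far above every saline mouse. *Pla2g2e*, a secreted phospholipase A2, had 0.276, 0, 0.728, 0 and 0.318 CPM with saline and 14.5, 14.4, 5.53, 8.75 and 5.63 with CL, and *Acot12*, a cytosolic acetyl-CoA thioesterase with 10 counts in all saline mice together, was at least 5.07-fold higher. *Hcn2*, a cation channel opened by hyperpolarisation and tuned by cAMP, had 3.03, 2.20, 2.91, 2.00 and 3.17 CPM with saline and 59.4, 37.7, 43.6, 33.0 and 32.9 CPM with CL (log2 fold change 3.88, standard error 0.31, edgeR adjusted p = 5.42e-11). *Tfr2*, transferrin receptor 2, had 3.84 ± 0.614 and 34.3 ± 8.26 CPM, *Fndc5*, the precursor of irisin, 2.60 ± 1.01 and 29.9 ± 8.44 CPM, and *Slc25a34*, a mitochondrial carrier of unsettled substrate, 12.7 ± 9.75 and 116 ± 44.8 CPM. *Bmp8b*, a secreted factor of brown adipocytes whose span partly holds that of *Oxct2b*, rose by 3.00. The 20 genes chosen for size of change were taken from induced genes with separate groups and a mean of at least 2 CPM. Among the rest of these 20, *Dnajc22*, *Arhgef19*, *Elovl4*, *Tesc*, *Kcnd2*, *Tmem82*, *Hist1h2be*, *Rbp4* and *Ncan* had log2 fold changes from 2.55 to 3.22. Reads of *Hist1h2be* may be split among near-identical histone genes.

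**Figure D2:**
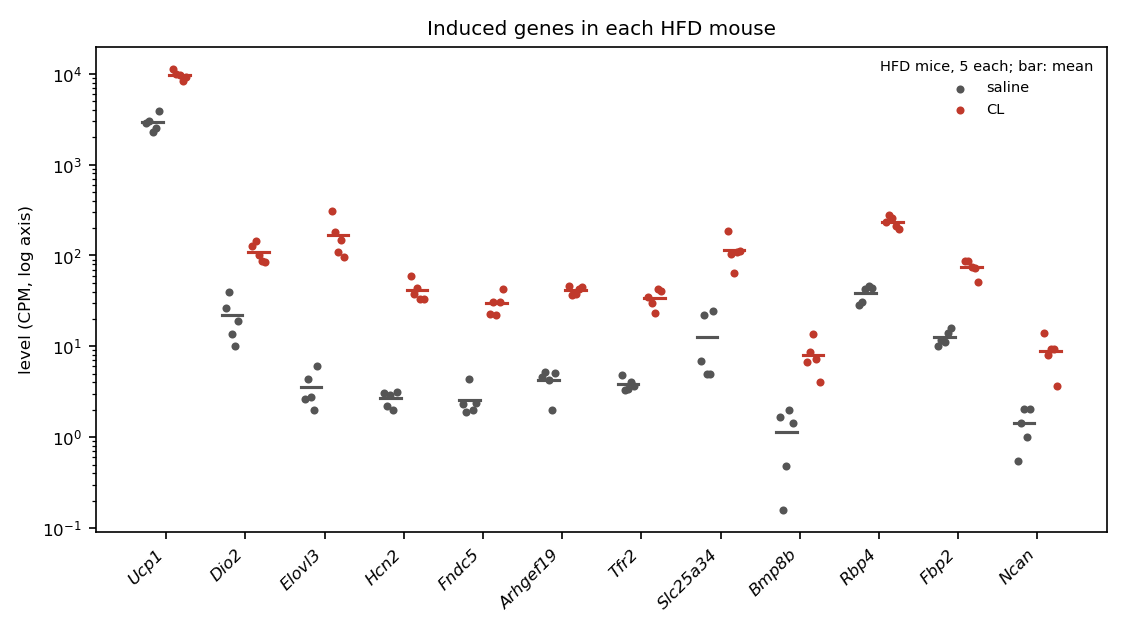
Level in CPM on a log axis of *Ucp1*, *Dio2* and those of the 20 most induced genes that were counted in every mouse (x axis), with saline mice in grey, CL mice in red, 5 points each and a bar at the mean. Genes other than *Ucp1* and *Dio2* were chosen among induced genes whose groups did not overlap. Their CL points therefore lie above all saline points by choice, and those of *Ucp1* and *Dio2* do so too. Levels run from *Ucp1* at the top to *Bmp8b* and *Ncan* at the bottom.

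Of these 20 genes, 4 lie close together on chromosome 4. *Arhgef19*, *Fam131c*, *Tmem82* and *Slc25a34* fall within 381 kb (chr4:140798799-140813477, chr4:140924107-140940089, chr4:141170148-141174548 and chr4:141174740-141179749), and the last pair, both on the minus strand, are 191 bases apart. The interval holds 9 tested genes, 4 of them induced and none reduced, and its other 5 genes had log2 fold changes from -1.64 to 0.25 with no adjusted p under 0.05. This stretch was noticed after the values were seen. Over the genome, 45 of the 273 induced genes (16.5%) had another induced gene within 100 kb without overlapping it, against 6.35% of the 12731 genes called neither way, and 30 of the 273 reduced genes (11.0%) had a reduced neighbour, against 7.20%. Neighbours include related copies such as *Fbp1* and *Fbp2*, and these shares were not tested.

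The genes for the signal that CL triggers were called about as often as all genes tested. Of 64 tested genes of adrenergic and cAMP signalling 8 (12.5%) were higher and 9 (14.1%) lower by the p, against 12.7% and 10.8% of all genes, with 2 induced, 2 reduced and a median of -0.05. The transcript of *Adrb3*, the receptor that CL activates, had 213, 373, 226, 242 and 403 CPM with saline and 206, 186, 250.1, 276 and 199.5 CPM with CL, which overlapped (log2 fold change -0.39, standard error 0.21, edgeR adjusted p = 0.188). *Adcy3*, an adenylyl cyclase that makes cAMP, rose from 97.5 ± 4.87 to 298 ± 82.3 CPM and *Pde7b*, a phosphodiesterase that degrades it, from 18.2 ± 3.18 to 66.7 ± 11.9 CPM (log2 fold changes 1.61 and 1.83). The end of *Adcy3* overlaps *Cenpo* on the other strand. *Gnas*, the stimulatory G protein, was higher by 0.89. *Pkia*, an inhibitor of protein kinase A, was called reduced at -1.58, but without saline replicate 3 its change was -0.83 with adjusted p = 0.323. Among 18 genes that cAMP switches on within minutes to hours, none was induced, *Nr4a1* was reduced, *Per1* was lower and the median was -0.24. Without CL replicate 2, CL replicate 3 or saline replicate 5 a second member was reduced. *Gpr3*, a receptor with constitutive activity and the subject of the other cohort, was at or under 3 counts in most mice, at 0.413, 0.315, 0.485, 0 and 0.476 CPM with saline and 1.18, 0.679, 0, 0.990 and 0.182 CPM with CL.

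Among the reduced genes were several of the most abundant secreted products of the tissue. *Gpx3*, the glutathione peroxidase of plasma (chr11:54716356-54723884), had 3444, 3810.0, 3916, 3865 and 3417 CPM with saline and 730.3, 836, 683, 778 and 1028 CPM with CL (log2 fold change -2.19, standard error 0.19, edgeR adjusted p = 8.56e-11). Per length it stood at 2432 RPKM with saline, rank 9 of all genes tested, and at 535 RPKM with CL, rank 109. *Hp*, haptoglobin, which binds free haemoglobin, had 1121, 1698, 1165, 1373 and 1340.0 CPM with saline and 362, 354, 397, 278 and 294 CPM with CL (log2 fold change -1.99, standard error 0.27, edgeR adjusted p = 6.71e-07). *Apoe* fell from 2077 ± 332 to 598 ± 98.1 CPM, whereas *Apoc1*, a smaller apolipoprotein that starts 3584 bases from *Apoe* on chromosome 7, rose from 105 ± 16.4 to 285 ± 25.6 CPM. *Angptl4*, a secreted inhibitor of lipoprotein lipase, had 800.3, 685, 749.8, 1119 and 742 CPM with saline and 131, 178, 184, 324 and 334 CPM with CL (log2 fold change -1.83, standard error 0.35, edgeR adjusted p = 1.79e-04). *Lpl*, the lipase it inhibits, which frees fatty acids from circulating triglyceride, rose from 4162 ± 621 to 8413 ± 1487 CPM (log2 fold change 1.01, close to the threshold of 1). Of 21 tested genes of lipoprotein lipase and fatty acid uptake *Lpl* and *Apoc1* were induced and *Angptl4* and *Apoe* reduced. In all these genes the groups did not overlap.

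The 20 reduced genes chosen for size of change, by the same rule as the induced ones, were led by *Prr32*, *Strip2*, *Nnat* and *Nr4a1*. *Strip2*, a subunit of a phosphatase complex, had 28.2, 39.8, 44.8, 37.1 and 31.4 CPM with saline and 1.85, 2.38, 7.85, 3.47 and 2.36 CPM with CL (log2 fold change -3.45, standard error 0.39, edgeR adjusted p = 3.32e-08). *Nnat*, neuronatin, a small imprinted membrane protein of the endoplasmic reticulum, had 133, 355, 324, 88.2 and 97.6 CPM with saline and 28.2, 19.4, 27.3, 30.4 and 18.4 CPM with CL (log2 fold change -3.04, standard error 0.42, edgeR adjusted p = 1.26e-06). It sits inside *Blcap* on the other strand, which had a log2 fold change of -0.93, and without strand their shared reads cannot be told apart. *Nr4a1*, an orphan nuclear receptor that β-adrenergic stimulation raises acutely, had 94.2, 69.7, 87.5, 102 and 38.9 CPM with saline and 7.90, 10.3, 14.0, 12.1 and 11.8 CPM with CL (log2 fold change -2.80, standard error 0.56, edgeR adjusted p = 3.21e-04). *Prr32*, little studied, fell from 9.58 ± 6.58 to 0.743 ± 0.766 CPM (log2 fold change -3.84). *Ivns1abp*, an actin-binding protein, fell from 909.5 ± 171 to 219 ± 51.8 CPM and *Clu*, the secreted chaperone clusterin, from 74.6 ± 24.1 to 15.2 ± 1.28 CPM. *Gadd45b*, a stress-induced gene, *Cryab*, a small heat shock protein also abundant in muscle, and *Lctl* fell with log2 fold changes of -2.60, -2.64 and -2.75. *Cryab* and *Lctl* overlap the reduced genes *Hspb2* and *Zwilch* on the other strand. The remaining genes of the 20, *Fras1*, *Cdsn*, *Plekhg6*, *Myoc*, *Cpne9*, *Sorcs2*, *Plaur* and *Stac*, had log2 fold changes from -2.74 to -1.98, and *Fras1*, *Myoc*, *Cpne9*, *Plaur* and *Stac* had the lowest means, from 3.39 to 5.67 CPM with saline.

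**Figure D3:**
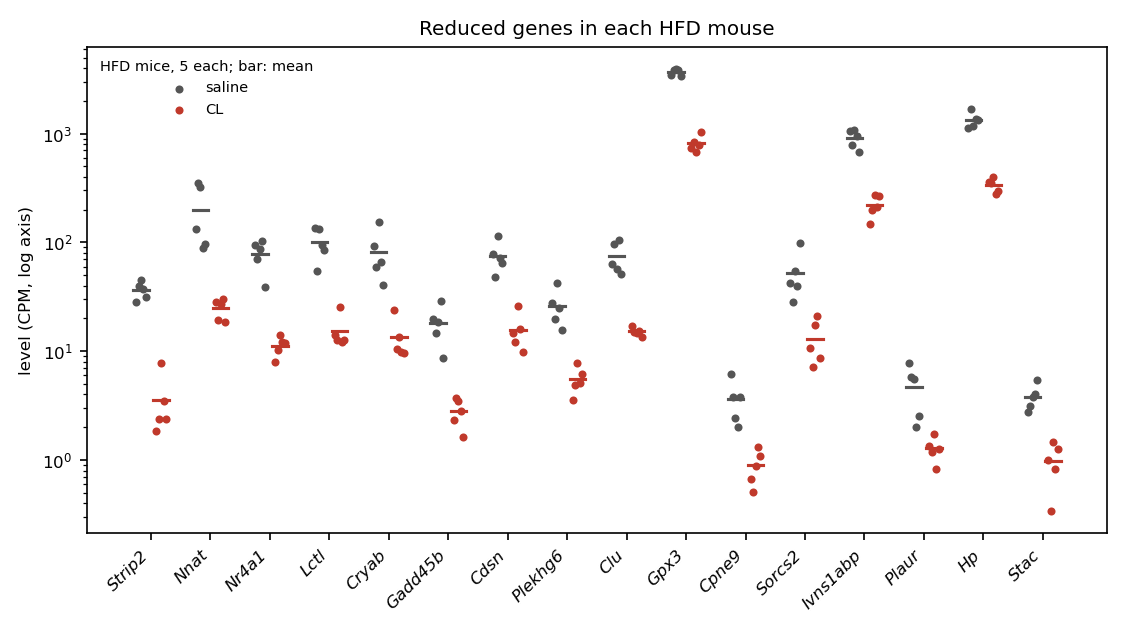
Level in CPM on a log axis of those of the 20 most reduced genes that were counted in every mouse and are reported here (x axis), with saline mice in grey, CL mice in red, 5 points each and a bar at the mean. The genes were chosen among reduced genes whose groups did not overlap, so that all CL points lie below all saline points by choice. Levels run from *Gpx3* at the top to *Cpne9* and *Stac*, with means near 1 CPM with CL.

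Adipokines and genes typical of white fat divided. *Rbp4*, retinol-binding protein, had 28.2, 30.5, 42.9, 46.1 and 43.8 CPM with saline and 232, 277, 256, 209.9 and 194 CPM with CL (log2 fold change 2.64, standard error 0.22, edgeR adjusted p = 5.44e-11). *Mest*, an imprinted gene linked to adipocyte expansion, rose from 5.41 ± 1.64 to 26.0 ± 8.34 CPM and *Apln*, apelin, from 12.2 ± 7.24 to 38.3 ± 7.18 CPM. *Cfd*, adipsin, had 507, 1492, 865, 856 and 1106 CPM with saline and 302, 234, 219, 283 and 379 CPM with CL (log2 fold change -1.77, standard error 0.32, edgeR adjusted p = 9.58e-05), and *Sncg*, a synuclein of white adipocytes, fell from 75.4 ± 19.7 to 19.9 ± 6.14 CPM. *Lep*, leptin, had 426, 448, 668, 386 and 204 CPM with saline and 219, 144, 388, 126 and 89.0 CPM with CL. These overlapped, and the difference of -1.15 ± 0.54 did not pass the test over all 40 libraries (edgeR adjusted p = 0.119). It did when the 10 libraries were fitted alone (-1.17, adjusted p = 0.0161) or CL replicate 3, the highest CL mouse, was left out (-1.56, 0.0473). *Adipoq*, adiponectin, differed by -0.18 (edgeR adjusted p = 0.309). Of 19 tested members 3 were induced and 5 reduced (3 without saline replicate 3 and CL replicate 1). Of 21 secreted factors ascribed to brown fat *Bmp8b* was the 1 induced, and *Angptl4*, *Inhbb*, which encodes a subunit of activin, and *Fst*, which binds activin, were reduced, the last 2 at -1.66 and -1.06, with groups that overlapped in both.

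Most matrix and immune genes that passed the p were lower. Of 46 tested collagens and other matrix genes 14 were lower and 1 higher, all by less than the fold change of 1, with a median of -0.43. The number reduced rose to 7 with library totals, 5 without CL replicate 3, CL replicate 5 or saline replicate 5, 3 without saline replicate 3 and 2 without CL replicate 2, and the number lower was 22 with library totals and 9 without both muscle-rich libraries. *Col5a3*, a collagen of adipose tissue, had the lowest p, at 244 ± 23.2 CPM with saline and 137 ± 22.0 with CL (log2 fold change -0.83), and *Timp3*, an inhibitor of matrix proteases that lies inside *Syn3* on the other strand, was lower at -0.61. Of 28 genes of antigen presentation and interferon responses 9 were lower, among them class II genes such as *H2-DMb1* at -1.05, and 2 higher, *Ifi44* and *Rsad2*. The call of *H2-DMb1* was lost without saline replicate 3 and CL replicate 1 (adjusted p = 0.0727). Of 34 vessel genes 4 were higher and 7 lower, against 12.7% and 10.8% of all genes tested. *Apln* was the 1 induced and *Angptl4* the 1 reduced (2.94% each, against 2.06% of all genes). In bulk tissue fewer cells of a type and less RNA per cell cannot be told apart.

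The number of reduced macrophage genes depended on single mice. Of 40 tested members 6 were reduced, 11 lower and none higher, with a median of -0.83. *Cd68*, a lysosomal protein of macrophages, had 38.7, 39.7, 22.4, 65.2 and 16.2 CPM with saline and 6.89, 18.3, 9.89, 9.57 and 26.7 CPM with CL (log2 fold change -1.25, standard error 0.35, edgeR adjusted p = 0.00758). CL replicates 2 and 5 lay within the range of the saline mice, so that the groups overlapped. *Itgax*, *Trem2* and *Ccl9*, an integrin, a lipid receptor and a chemokine of myeloid cells, were called at -1.51, -1.35 and -1.32 and also overlapped. Leaving out 1 mouse moved the number of reduced members between 1, without CL replicate 1, and 19, without CL replicate 5. It fell to 2 without saline replicate 4, to 3 without CL replicate 3 or CL replicate 4, rose to 11 without saline replicate 5 and to 9 without saline replicate 3, and was 2 without saline replicate 3 and CL replicate 1 together. *Ctsb* and *Ctsd*, lysosomal proteases also made by adipocytes, carried most of the summed level. Without them the 38 other tested members summed to 1182, 1112, 765.5, 1784 and 769 CPM in saline mice and 309, 626, 557, 499 and 991 CPM in CL mice, where CL replicate 5 exceeded saline replicates 3 and 5.

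Of 39 tested genes of the cell cycle 4 were induced, 10 higher by the p and none lower, with a median of 0.58, and 29 did not pass. *Kif20a*, a motor protein of cytokinesis, had 4.13, 3.78, 2.67, 3.01 and 2.86 CPM with saline and 6.73, 6.79, 8.72, 8.25 and 5.995 CPM with CL (log2 fold change 1.12, standard error 0.23, edgeR adjusted p = 3.56e-04), although its span overlaps *Cdc23* on the other strand. *Cdc6*, which licenses replication origins, rose by 1.12, and *Ccnb2* and *Top2a*, a mitotic cyclin and a topoisomerase, were called at 1.29 and 1.06 with adjusted p = 0.0499 and 0.049, each lost when most single mice were left out. With library totals none was induced, 4 were higher and 2 lower, and without saline replicate 3 there were 2 induced and 4 higher. Leaving out CL replicate 2, 3 or 4 or saline replicate 5 also gave 2 induced, and leaving out saline replicate 4 gave 6.

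Other lists gave few calls. Creatine and calcium cycling had *Alpl*, tissue-nonspecific alkaline phosphatase, induced from 21.4 ± 4.63 to 74.7 ± 21.9 CPM, and *Gamt* and *Slc6a8*, for creatine synthesis and uptake, reduced at -1.36 and -1.19. Its median of -0.85 over 13 members turned to 0.23 without saline replicate 3 and CL replicate 1 (0.19 without saline replicate 3 alone), and several of its members are also muscle genes. *Phgdh* and *Psph*, the first and last enzymes of serine synthesis, went opposite ways, at -1.61 and 1.15, the only calls among 29 genes of the integrated stress response and amino acid synthesis. Of 19 clock genes none was called by fold, and *Nr1d1* and *Cry2* were lower at -0.76 and -0.49, the latter not past the p without saline replicate 3 and CL replicate 1 (adjusted p = 0.0558). Among chaperones of the endoplasmic reticulum 2 were higher and 4 lower, *Pdia4* and *Xbp1* at -0.44 and -0.44. Of 31 tested muscle genes *Mb*, myoglobin, was the 1 called. It had 3.44, 9.92, 56.9, 4.01 and 2.70 CPM with saline and 79.9, 69.1, 63.4, 75.4 and 74.1 CPM with CL (log2 fold change 2.05, standard error 0.67, edgeR adjusted p = 0.0233), so that CL mice were alike and saline replicate 3, rich in muscle transcripts, came close to them. Without saline replicates 1, 2 or 5 the adjusted p was 0.0707, 0.0603 and 0.0595. Of 32 tested liver genes *Hp* was reduced and *Cyp2e1* induced, and none of 6 tested epididymis genes was called. *Cyp2e1*, a cytochrome that adipocytes also express, was called at 1.14, but not without CL replicate 1 or saline replicates 1, 3 or 4 (adjusted p = 0.087 to 0.138). CL replicate 1, which had the highest liver sum, also had the highest *Cyp2e1*, 225 CPM, and the part of liver transcripts in its change was not tested. Of 20 genes of mature adipocytes 1 was induced and 1 reduced (5% each, against 2.06% of all genes tested). *Pdgfra*, a marker of preadipocytes, was lower at -0.81 and *Cd34* higher at 0.61, the latter past the p by little (edgeR adjusted p = 0.0344, and 0.0509 to 0.0869 without any 1 of 7 mice). *Pmp22* and *S100b*, Schwann cell genes that adipocytes also express, went opposite ways at -0.60 and 0.69 (0.55 and adjusted p = 0.0642 for *S100b* without saline replicate 2). *Cd79b*, of B cells, had means of 0.528 and 1.53 CPM and was called at 1.29 with adjusted p = 0.0396, lost without any of 7 single mice. *Amy1* was the only tested member of the mammary and salivary list, at 159.6 ± 21.1 and 169.6 ± 24.3 CPM.

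**Figure D4:**
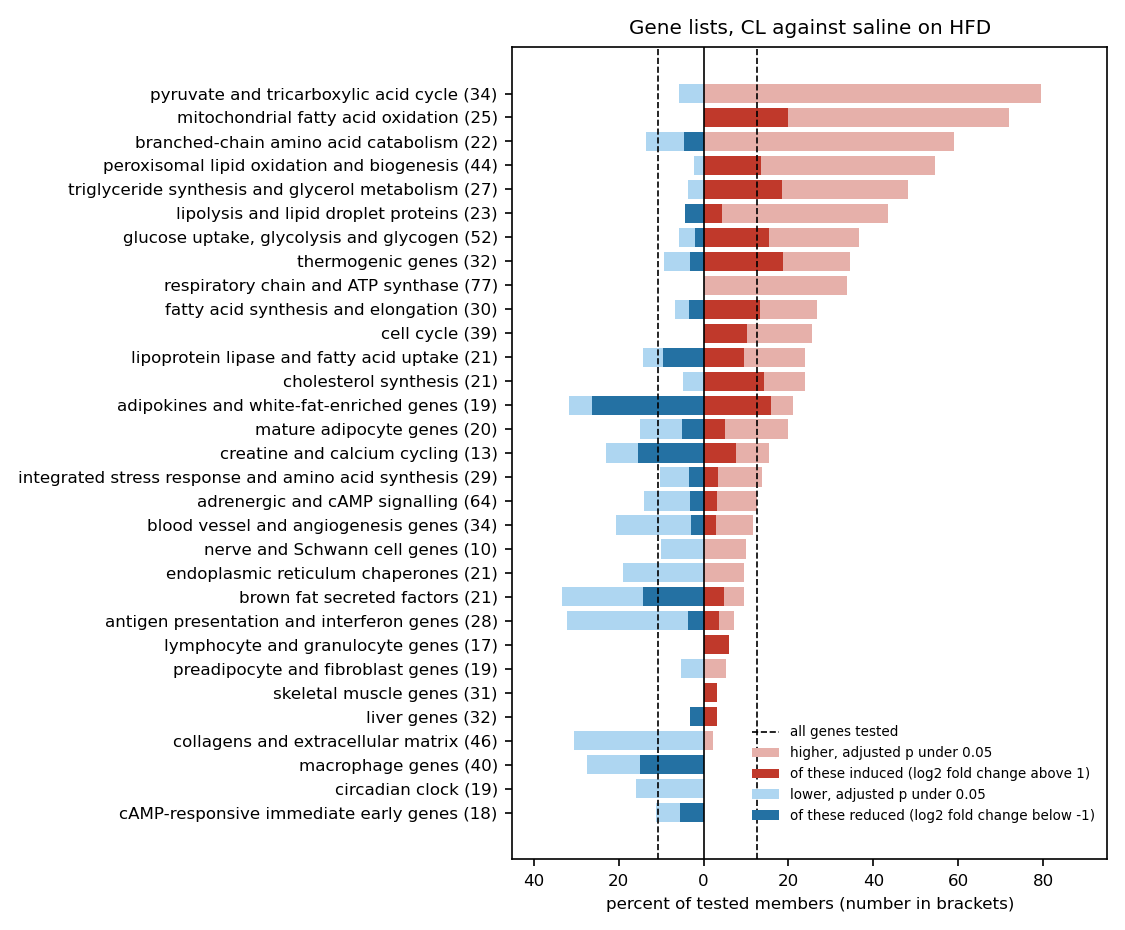
Percent of the tested members of each list that were higher (pale red, induced in dark red) or lower (pale blue, reduced in dark blue) with CL against saline on HFD, for lists with at least 10 tested members, and dashed lines at the 12.7% and 10.8% of all genes tested. The bars for the tricarboxylic acid cycle (27 of 34) and mitochondrial fatty acid oxidation (18 of 25) reach farthest to the right, and those for brown fat secreted factors, antigen presentation, adipokines, matrix and macrophage genes reach farthest to the left.

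The same injections on chow gave a partly shared response. Of the 273 genes induced on HFD 99 (36.3%) were also induced on chow, which is 66.4% of the 149 induced there (1.12% of genes tested), and 45 of the 273 reduced genes (16.5%) were also reduced on chow, 23.3% of the 193 there (1.45%). Among these 193 were 20 of 31 tested skeletal muscle genes, none of which was reduced on HFD. The median of the muscle list on chow was -3.14. The part of uneven muscle transcripts in these shares was not tested. The change on chow had the same sign for 260 of the induced and 252 of the reduced genes. The median log2 fold change of the induced genes was 1.40 on HFD, where they were chosen, and 0.86 on chow, and that of the reduced genes -1.32 and -0.59. The effects on the 2 diets were compared gene by gene as an interaction in the same edgeR model, and 2 of 13277 genes (0.0151%) differed, both with a larger effect on HFD. *Hcn2* had a log2 fold change of 3.88 on HFD and 1.24 on chow (difference 2.64, edgeR adjusted p = 0.012), and *Hist1h2be* of 2.96 and 0.26 (difference 2.70, edgeR adjusted p = 0.00164). In no gene did the effect on HFD lie below that on chow by edgeR, at an unadjusted p under 0.05 there were 1250 genes in either direction, and DESeq2 called 19 above and 21 below. Without both muscle-rich libraries *Hcn2* did not pass (edgeR adjusted p = 0.0687) and *Hist1h2be* was the 1 gene left. *Ntrk3* passed with its effect on HFD below that on chow without CL replicate 3 (difference -0.99, edgeR adjusted p = 0.0426) or CL replicate 4 (-1.04, 0.0155), as did *Ybx2*, named here after its values were seen, without CL replicate 3 (-1.16, 0.0149). *Dio2* stood at 2.22 on HFD and 0.75 on chow (edgeR adjusted p = 0.256 there), a difference of 1.47 that did not pass (edgeR adjusted p = 0.463). *Gadd45b* stood at -2.60 and -0.45 (edgeR adjusted p of the difference 0.0866). All injected HFD libraries had lower totals than every injected chow library and held liver transcripts such as *Alb*, which the chow libraries nearly lacked, so that diet and this difference between libraries cannot be told apart.

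**Figure D5:**
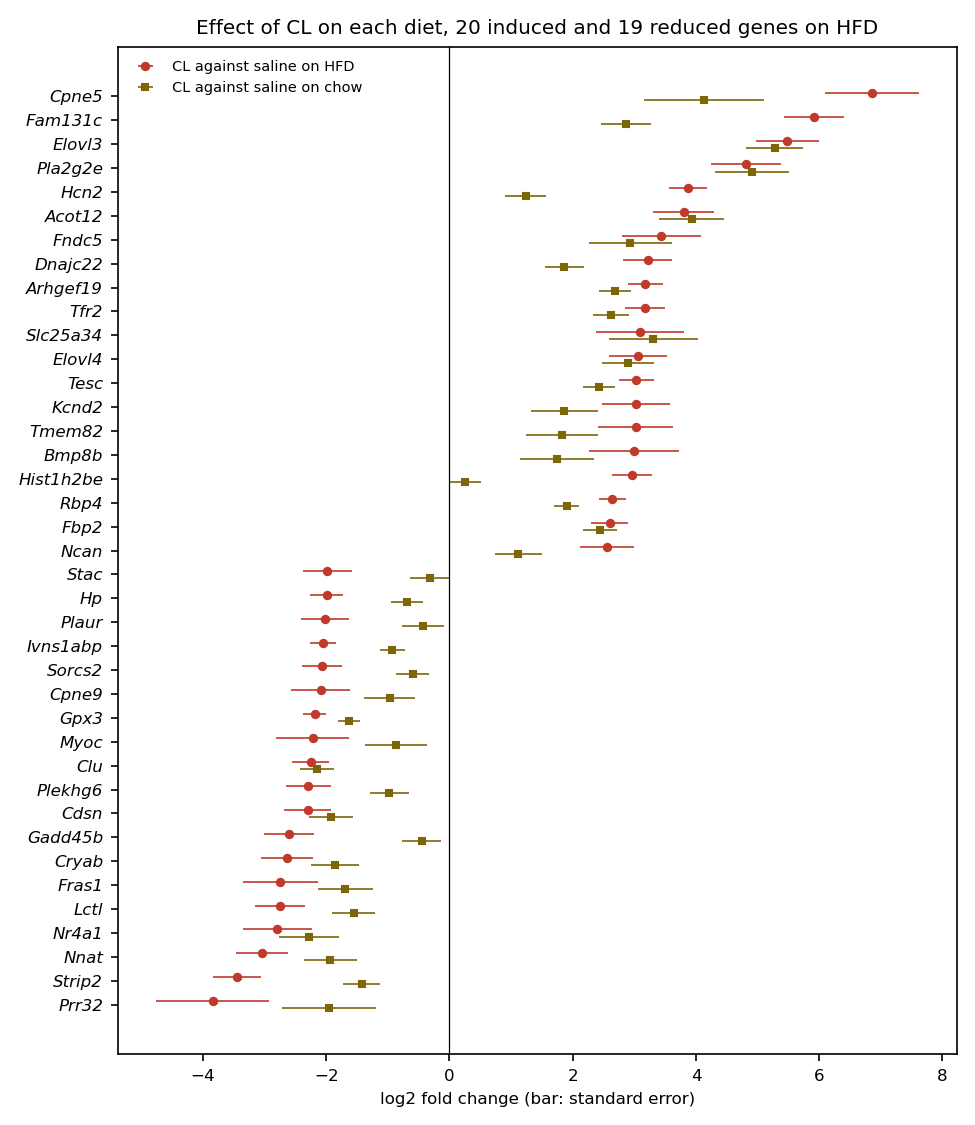
Log2 fold change of CL against saline (x axis, bars are standard errors) on HFD (red circles) and chow (brown squares) for the 20 most induced genes and 19 of the 20 most reduced genes on HFD. They were chosen by their HFD values among called genes with separate groups and a mean of at least 2 CPM. *Elovl3*, *Pla2g2e* and *Acot12* lie close together on both diets, whereas *Hcn2* and *Hist1h2be*, which passed the interaction test, lie apart. Others lie apart without passing it, such as *Fam131c* (5.92 on HFD and 2.87 on chow, edgeR adjusted p of the difference 0.0866) and *Cpne5* (6.85 and 4.13, 0.782).

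The CL effect was also set against that of *Gpr3* overexpression on the same diet. That cohort has no injections in its labels. Its control libraries on HFD held 7503112 to 13461733 counts, more than any injected HFD library. The part of cohort, injection and depth in the differences was not tested. The effects differed for 239 genes, 139 (1.05%) with the CL effect above the C-3BO effect and 100 (0.753%) with it below. Without C-3BO replicates 4 and 5, whose libraries held liver transcripts, 72 lay above and 41 below. *Mest* had a log2 fold change of 2.17 with CL and -0.80 in C-3BO mice (difference 2.97, edgeR adjusted p = 4.60e-04). *Sncg* had a change of -1.95 with CL against 0.02 (adjusted p = 0.0077), and *Nnat* and *Gpx3* had changes of -3.04 and -2.19 with CL and -0.93 and -1.23 in C-3BO mice (adjusted p = 0.0378 for each). *Rbp4* was at 2.64 with CL and 4.08 in C-3BO mice (edgeR adjusted p = 0.00472). The values of these genes are from the fit with all C-3BO libraries. The part of liver transcripts in their differences was not tested.

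The order of the mice within a group was uneven. CL replicate 1 had the highest level of its group for 122 of the 273 induced genes, and CL replicate 3 the lowest for 92. Among saline mice, replicate 5 was the highest for 113 of the induced genes and the lowest for 128 of the reduced genes, both among genes chosen by this same contrast. Without it 333 genes were induced and 340 reduced. The shallow saline replicate 4 was highest for 93 reduced genes and lowest for 118 induced ones, and without it 276 were induced and 222 reduced.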

How the data were processed

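BAT RNA of 10 mice on HFD, 5 injected with CL and 5 with saline, was compared within a table of 40 libraries. The authors made poly(A) TruSeq libraries, aligned them to mm9 with STAR, made HOMER tag directories and used iRNA-seq to count the exonic reads of each RefSeq gene. They deposited the counts without normalization. Tool versions and strandedness are not given in the sources used here, so overlapping genes on opposite strands may share reads.

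Groups were taken from the labels. The 20295 genes were filtered with filterByExpr (minimum count 10), which left 13277, and all 40 libraries entered a quasi-likelihood model in edgeR 4.0.16 (R 4.3.3) with TMM factors and a mean for each of the 8 groups. The study's own comparisons used DESeq2, which served here as an alternative in version 1.42.0. P-values were adjusted by Benjamini-Hochberg over all genes tested, and interactions passed the adjusted p alone. Standard errors are the log2 fold change divided by the square root of F. RPKM are CPM per 1000 exon bases of the deposited length. Library totals from 849126 to 7284129 limit precision for low genes, above all in saline replicate 4. No 2 libraries were identical. Within a group the labels used here tell the mice apart by replicate number alone. The p-values measure a spread between samples that was estimated over all 40 libraries, not over these 10 alone.

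Genes were named if among the 20 most changed called genes per direction with separate groups and a mean of at least 2 CPM over the 10 libraries, as the called members of each list (up to the 4 most changed per direction, or the 2 with the lowest adjusted p in a list with none), as fixed brown fat genes, or as the most abundant liver, epididymis and muscle genes. *Letmd1*, *Aqp7*, *Idh2*, *Pdp1*, *Gnas*, *Per1*, *Ifi44*, *Ctsb* and *Ctsd* and genes given for an overlap, a copy or a promoter match were named after their values were seen. Some genes that these rules name are not reported here. The members and lists were chosen with earlier results of these data known. Positions of genes are 1-based in mm9, and promoter sequences are RefSeq's for GRCm38.p6. The alternatives were other scaling (library totals, RLE factors), other filters, the 10 libraries alone, DESeq2, replicate number as a block, no fold change threshold and each mouse left out in turn. Fits without the muscle-rich libraries and without the C-3BO libraries with liver transcripts were added after the data were seen. On simulated counts for 13277 genes with CL and saline groups on HFD, edgeR recovered 94% of genes planted at a log2 fold change of 1.5 and 100% at 3, with 3 false calls. The planted genes had means above 2 CPM and went up and down in equal numbers. Counts were drawn gene by gene, without tissue transcripts that vary together between mice. These rates therefore do not cover lower genes or uneven muscle or liver transcripts. Figures were drawn with matplotlib 3.10.9.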

Additional observations from a re-analysis of the deposited data

Results flagged for a closer look

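A mouse stood far from the other 4 of its group in 30 of 266 groups screened by Dixon's test, which chance passes in about 1 of 20. Saline replicate 5 was the highest saline mouse for *Acot11* (336 CPM, the others 151 to 172), *Decr1* (806, the others 588 to 649), *Dlst* (1650.0), *Hacl1* (49.2), *Sucla2* (2200.0) and *Uqcrfs1* (1110.0), and the lowest for *Apoe* (1500.0 CPM, the others 2090.0 to 2320.0). All of these but *Apoe* are genes that CL raised, and *Apoe* is a gene that CL lowered. Saline replicate 3 was highest for the muscle genes *Acta1* (530.0 CPM, the others 5.01 to 47.1), *Atp2a1* (513), *Mb* (56.9) and *Myh4* (560.0), and for *Fads3* (176), *Fndc5* (4.37) and *Pmp22* (166). CL replicate 1 was highest for *Atp2a1* (199), *Myh4* (226), *Cryab* (23.7), *Hsd17b12* (519) and *Pnpla2* (3800.0). The shallow saline replicate 4 was highest for *Angptl4* (1120.0), *Fdps* (13.0), *Fras1* (9.02) and *Itgax* (13.0). Single mice also stood apart for *Apoe* (CL replicate 5, 772), *Trem2* (CL replicate 5, 7.99), *Cry2* (CL replicate 3, 101), *Lctl* (CL replicate 3, 25.6), *Strip2* (CL replicate 3, 7.85), *Pdia4* (CL replicate 2, 56.7) and *Cpne5* (saline replicate 2, 0.315).

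The effect of CL differed from that of *Gpr3* overexpression on HFD, by the interaction in edgeR, for *Mest* (2.97), *Cd34* (1.72), *Gpx3* (-0.96), *Rbp4* (-1.44), *Sncg* (-1.97) and *Nnat* (-2.11), each the CL effect minus the C-3BO effect in log2 units. It also differed for *Gpr3* itself (-10.57), the transgene, and for *Alb* (-7.03) and *Gpx5* (-7.06), transcripts of liver and epididymis that 2 of the C-3BO libraries held. The part of such transcripts in the other differences was not tested. Between HFD and chow the effect of CL differed for *Hcn2* (2.64) and *Hist1h2be* (2.70).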

How the results depend on the processing

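The total of 546 called genes stayed between 390 and 673 under every alternative that kept the fold change threshold. Without the threshold 3122 genes passed, 1686 higher and 1436 lower. The reduced genes went to 434 with library totals and to 155 without saline replicate 3 and CL replicate 1. Leaving out 1 mouse gave 256 to 333 induced and 222 to 340 reduced genes. The interaction of CL with diet gave 2 genes by edgeR, 40 by DESeq2 and 2 to 4 when single mice were left out (4 without CL replicate 3), 1 without both muscle-rich libraries and 6, 3 in each direction, without the 2 C-3BO libraries with liver transcripts. The difference between CL and C-3BO gave 130 to 257 genes without single mice, with 130 without CL replicate 4 and 147 without saline replicate 5, and 113 without the 2 C-3BO libraries with liver transcripts. Same-numbered mice did not deviate together (r from -0.158 to 0.0461). These correlations cannot exclude a pairing, and the labels used here name none. With replicate number as a block 263 genes were induced and 272 reduced, and *Lep* passed (adjusted p = 0.0426). In the interaction with diet the block lost *Hcn2* (adjusted p = 0.0506) and added *Ntrk3* (-0.94, 0.0211). Of the named genes past the p, 17 lost it under some alternative, in 102 of 2196 comparisons, and none turned direction. Without both muscle-rich libraries 14 lost it. Among these were *Cyp2e1* (0.80, edgeR adjusted p = 0.25), *Bcat1* (adjusted p = 0.109), *S100b* (0.0835), *Pkia* (0.322), *Itgax* (0.0744), *Trem2* (0.0914) and *Cd79b* (0.0971). Genes that had not passed and changed sign were *Acta1*, *Atp2a1* and *Myh4* of muscle, at 0.58, 0.79 and 0.63 with the block, -1.97 to 1.55, -1.76 to 1.55 and -1.75 to 1.51 when single mice were left out (the highest without saline replicate 3), and 0.67, 0.65 and 0.58 without both muscle-rich libraries, *Alb* at -0.057 without those, *Amy1* at -0.069 with library totals, and *Ppargc1a* at 0.0018 with the block and -0.12 to 0.13 without single mice (above 0 without CL replicate 3 or saline replicate 5). The causes of these shifts were not tested. Low genes were limited by depth, since 3 counts in saline replicate 4 were 3.01 CPM.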
